A study of Homo sapiens with 8 samples.

Results

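The genes described here are the nuclear genes for mitochondrial ribosomal proteins, taken as every entry of the expression table whose symbol is MRPL or MRPS followed by a number and at most 1 letter. The rule chose 73 of the 13453 genes, 46 for the large subunit (MRPL) and 27 for the small subunit (MRPS), and used no measured value. All 73 passed the filter on low values, a mean of at least 1 FPKM, a read level scaled to the length of the gene's exons and to the mapped fragments of the library. A further 3 entries name a member together with another gene (MRPL53, MRPS24 and MRPS6) and were not taken.

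The cells were Jurkat cells, a human T-acute lymphoblastic leukemia line, and the question was which transcripts change when CBAP (gene TMEM102), an adaptor protein of T-cell signaling, is lost. There were 2 RNA-seq libraries in each of 4 conditions. In the shRNA set, cells with a control shRNA (sh-Ctrl) were compared with cells with a CBAP shRNA (sh-CBAP), both stably transduced with lentivirus. In the CRISPR set, CBAP-KO cells expressing GFP were compared with CBAP-KO cells given CBAP-GFP (CBAP-reconstituted), so every library of that set carries the knockout and a GFP construct. By the study's methods the knockout lines were grown from sorted single cells, and the labels do not say whether libraries of 1 condition came from separate cultures, so p-values measure only the spread between these libraries. CBAP-expressing means sh-Ctrl and CBAP-reconstituted, and CBAP-deficient means sh-CBAP and CBAP-KO, by the labels.

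TMEM102 was at 4.07 and 4.74 FPKM in sh-Ctrl and at 2.69 and 2.89 in sh-CBAP. It was listed at 0 in both CBAP-KO libraries and also in both libraries labelled CBAP-reconstituted, so it does not check the labels of the CRISPR set, and every direction given for that set rests on the labels. The 8 T-lineage markers examined were all in the table, and 7 were at 5 FPKM or more in every library. Of 5 B-lineage markers only CD79A was in the table, at 0.732 to 22.5 FPKM over the libraries, and of 5 myeloid markers 0 were. In bulk RNA, fewer cells of a kind and less RNA per cell cannot be told apart.

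Mitochondrial ribosomes translate the few proteins encoded by mitochondrial DNA, all of them membrane subunits of the respiratory chain and ATP synthase. Their ribosomal RNAs are transcribed inside the organelle, whereas all of their proteins are encoded in the nucleus, made in the cytosol and imported. The large subunit holds the peptidyl transferase center and the exit tunnel, and the small subunit holds the decoding center. Some of these proteins have a bacterial counterpart, and others are found only in mitochondria. The symbols do not always follow the subunit: the MRPS30 and MRPS18A proteins sit in the large subunit, and MRPS36 is now known as a component of the 2-oxoglutarate dehydrogenase complex.

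Genes of this kind often have short GC-rich promoters with sites for ETS factors such as GABPA, for NRF1 and for YY1. Promoter windows of 300 bases, 250 before and 50 after the annotated start, were available for 64 of the 73 members and 9100 genes of the table (RefSeq, GRCh38.p14). On either strand, the ETS core CCGGAAG was found in 27 of the 64 members (42.2%) and in 19.1% of all windows. The YY1 core AANATGGCG was found in 17 members (26.6%) and in 7.12% of all windows. The ETS core lay wholly before the start in 27 of its 35 occurrences in members, whereas the YY1 core, which holds an ATG, lay after the start in 15 of 19. The other motifs were less apart. GCGCANGCG (NRF1) was in 18.8% of members and 15% of all windows, GGGCGG (SP1) in 59.4% and 70.4%, CCAAT (NFY) in 31.2% and 36.9%, and CACGTG (E-box) in 9.38% and 10.4%. These are matches of letters, not binding sites.

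All 8 windows shown next hold the ETS core, as 27 of the 64 member windows do. The core is in capitals on whichever strand it was found. MRPL12, MRPL42, MRPL44, MRPL55, MRPS7 and MRPS14, also described below, have windows without it. Stretches of 120 bases around or just before the start are shown for 8 members whose values are described below. They are those of MRPL16 (chr11:59810778-59810897, minus strand), MRPS10 (chr6:42217861-42217980, minus strand), MRPS21 (chr1:150293742-150293861, plus strand) and MRPS34 (chr16:1773134-1773253, minus strand), which are the members called lower after knockdown that have a window, of MRPL20 (chr1:1407293-1407412, minus strand), which was listed at 0 in both CBAP-KO libraries, of MRPL51 (chr12:6493272-6493391, minus strand), one of the most abundant members, and of MRPS12 (chr19:38930826-38930945, plus strand) and MRPS23 (chr17:57850044-57850163, minus strand), with some of the largest changes of the small subunit in the CRISPR set.
MRPL16: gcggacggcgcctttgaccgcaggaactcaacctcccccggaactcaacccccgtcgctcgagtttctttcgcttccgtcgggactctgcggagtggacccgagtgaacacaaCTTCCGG
MRPS10: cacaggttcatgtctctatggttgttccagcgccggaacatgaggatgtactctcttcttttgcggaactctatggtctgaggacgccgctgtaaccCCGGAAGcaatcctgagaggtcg
MRPS21: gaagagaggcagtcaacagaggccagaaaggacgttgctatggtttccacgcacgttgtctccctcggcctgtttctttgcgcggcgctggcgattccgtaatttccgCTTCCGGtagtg
MRPS34: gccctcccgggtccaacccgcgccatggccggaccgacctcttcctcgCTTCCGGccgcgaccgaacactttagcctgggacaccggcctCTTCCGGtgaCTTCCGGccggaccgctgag
MRPL20: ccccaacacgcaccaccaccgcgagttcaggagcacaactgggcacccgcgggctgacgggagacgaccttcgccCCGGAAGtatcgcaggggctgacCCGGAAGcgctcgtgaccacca
MRPL51: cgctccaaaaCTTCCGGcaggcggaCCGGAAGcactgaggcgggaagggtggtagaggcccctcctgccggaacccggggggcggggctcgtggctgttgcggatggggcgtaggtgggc
MRPS12: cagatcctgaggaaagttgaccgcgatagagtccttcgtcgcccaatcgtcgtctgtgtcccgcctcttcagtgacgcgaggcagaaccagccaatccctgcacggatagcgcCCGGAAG
MRPS23: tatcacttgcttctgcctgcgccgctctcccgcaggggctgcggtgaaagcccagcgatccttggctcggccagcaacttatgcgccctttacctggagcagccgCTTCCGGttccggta

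The first 30 transcribed bases with the YY1 core in capitals are shown for 4 large-subunit genes that behaved differently in the CRISPR set: MRPL1 (chr4:77862830-77862859, plus strand) and MRPL46 (chr15:88467359-88467388, minus strand), called lower, MRPL38 (chr17:75904855-75904884, minus strand), listed at 0 in CBAP-KO, and MRPL42 (chr12:93467514-93467543, plus strand), which was not called.
MRPL1: gcaatccggagtgcccAACATGGCGgcggc
MRPL46: gagaacgaAAGATGGCGgcgcccgtaaggc
MRPL38: ggagggAAGATGGCGgcgccctggtggcga
MRPL42: attgaaacAAGATGGCGggttcgtggtgag

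All 4 members called lower after knockdown that have a window hold the ETS core, where 42.2% of the 64 member windows do. With the shRNA set fitted alone, 0 of these calls were kept. Among members with no listed 0, the median log2 change after knockdown was -0.20 for the 23 with an ETS core. These 23 include the 4 called members, and the median was -0.07 for the 35 without the core. The knockdown ranges overlapped, at -0.71 to 0.25 with the core and -0.45 to 0.24 without. In the CRISPR set the medians were -0.69 and -0.54, with ranges that overlapped almost entirely. For the YY1 core the CRISPR medians were -0.66 for 16 members with it and -0.65 for 42 without, and the knockdown medians -0.07 and -0.14.

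In the genome the members are scattered over 21 chromosomes, and 18 of 73 (24.7%) start head to head, within 1000 bases, with another protein-coding gene, against 13% of the coding genes of the table. MRPL46 and MRPS11, a gene of each subunit, face each other across 63 bases on chromosome 15 (GRCh37). MRPL36 faces NDUFS6 and MRPL47 faces NDUFB5, both genes of respiratory complex I, each across 41 bases. Exons of 29 members overlap those of another coding gene, and 33 members have at least 1 named pseudogene, so reads of these genes could have been split or shared in counting.

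The members were well expressed. In sh-Ctrl, MRPL genes had a median of 55.9 and 59.6 FPKM in the libraries and MRPS genes one of 45 and 46.3. The medians after CBAP knockdown were 52.5 and 52.4 for MRPL genes and 41.1 and 41.8 for MRPS genes. The libraries labelled CBAP-reconstituted stood highest, at 68.2 and 67.5 for MRPL genes and 60.5 and 62.2 for MRPS genes. CBAP-KO stood lowest, at 40.7 and 37.5 for MRPL genes and 37.9 and 38.8 for MRPS genes. In these medians the order of the conditions was CBAP-reconstituted, sh-Ctrl, sh-CBAP and CBAP-KO for both subunits. Libraries of neighbouring conditions did not overlap in them. The medians are not corrected for offsets between libraries, and those of all genes are given below. The median MRPL change after knockdown turned positive with quantile normalization or a correction for exon length. The place of sh-Ctrl above sh-CBAP is therefore not read as a change of MRPL genes.

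**Figure D1:**
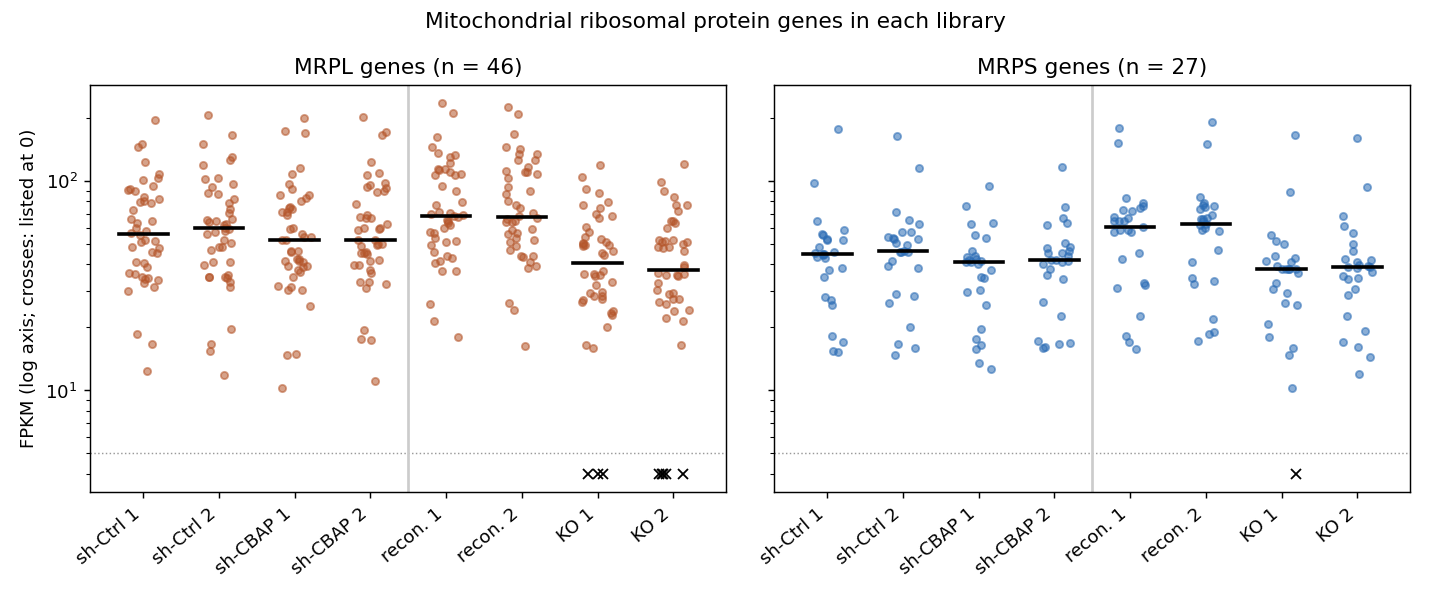
FPKM on a log axis of the 46 MRPL (left) and 27 MRPS (right) genes in each of the 8 libraries. Each point is a gene, the bar is the median, and crosses below the dotted line are genes listed at 0, which occur only in the CBAP-KO libraries (4 in the first, 5 in the second).

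The summed FPKM of the 73 members was 4294 and 4480 in sh-Ctrl, 3951 and 4158 in sh-CBAP, 5457 and 5545 in the libraries labelled CBAP-reconstituted, and 3134 and 3122 in CBAP-KO. As a share of all FPKM this was 1.11% and 1.15%, 1.09% and 1.07%, 1.27% and 1.28%, and 0.816% and 0.795%. The gap between conditions was thus wide in the CRISPR set and narrow in the shRNA set. The libraries used as CBAP-expressing in the sets, by their labels, were themselves apart in this sum and share. Of the 67 members with no listed 0, 62 were higher in both libraries labelled CBAP-reconstituted than in both of sh-Ctrl, with a median ratio of 1.25. The CBAP-KO libraries were also below sh-Ctrl for most of them, with a median ratio of 0.789 and 53 of 67 lower in both libraries. The matching shares over all genes were not computed, so these counts are not read as a trait of the members. The median FPKM of all genes was 8.89 and 8.88 in sh-Ctrl and 9.54 and 9.61 in the libraries labelled CBAP-reconstituted. In CBAP-KO it was 10.3 and 10.3, and in sh-CBAP 8.15 and 8.94. The ratios of the members are not corrected for such offsets. The sets differ in construct and clone, which cannot be told apart here.

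Over both sets together, 0 of 73 members were called in CBAP-deficient against CBAP-expressing libraries by limma at a Benjamini-Hochberg adjusted threshold of 0.05. At an unadjusted threshold of 0.05 there were 37, all lower, and 19 with the length correction, 24 with quantile normalization, 21 without either library labelled CBAP-reconstituted and 24 without CBAP-KO 1. Over all 11427 tested genes, 0.210% were called higher and 0.411% lower by the adjusted test. At the unadjusted threshold, limma gave 2397 of them in either direction. The median log2 change was -0.42 for MRPL genes and -0.42 for MRPS genes, against -0.04 over all tested genes, and with a correction for exon length it was -0.24 and -0.27. Of the members, 72 were below 0 and 1, MRPL48, above. All 4 deficient libraries were below all 4 expressing libraries for 10 MRPL and 10 MRPS genes and above them for 0, where 10.3% of all tested genes were lower in this way and 4.67% higher. When the set was added to the model as a term, 7 MRPL and 9 MRPS genes were called, all lower, where 8.46% of all tested genes were called lower.

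In the CRISPR set, lower transcript levels were seen across most of the group. CBAP-KO was lower than CBAP-reconstituted by the adjusted test for 39 of 46 MRPL and 20 of 27 MRPS genes, and 0 were called higher at either the adjusted or the unadjusted threshold of 0.05, where 25.9% of all tested genes were called lower and 23.9% higher. With quantile normalization MRPL42 was called higher (0.21, limma adjusted p = 0.0347), and with the length correction MRPS10 (0.26, adjusted p = 0.0243) and MRPS14 (0.22, adjusted p = 0.0363) were. The median log2 change was -0.77 for MRPL and -0.61 for MRPS genes, against 0 over all tested genes. As ratios of condition means, the 41 MRPL genes with no listed 0 had a median of 0.609 (range 0.394 to 1.03) and the 26 such MRPS genes one of 0.649 (range 0.44 to 1.02). Libraries of 1 condition lay close together here, with a median gap of 0.04 (CBAP-reconstituted) and 0.05 (CBAP-KO) on the log2 scale.

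In the shRNA set the change was small. The knockdown libraries were lower than sh-Ctrl by the adjusted test for 2 of 46 MRPL and 3 of 27 MRPS genes, and 0 members were called higher, where 8.70% of all tested genes were called lower and 3.62% higher. The share of members called lower (6.85%) was near that background. At an unadjusted threshold of 0.05, limma gave 18 members lower and 2 higher, and 3457 of the 11427 tested genes in either direction. The median log2 change was -0.07 for MRPL genes, -0.17 for MRPS genes and -0.06 over all tested genes. The median for MRPL genes moved above 0, to 0.02 with quantile normalization and 0.04 with a correction for exon length, so no direction is given for MRPL genes as a group in this set. The MRPS median moved to -0.12 with quantile normalization, -0.12 with median scaling and -0.07 with the length correction. The median gap between libraries of 1 condition was 0.12 in sh-Ctrl and 0.16 in sh-CBAP, wider than in the CRISPR set. With quantile normalization 5 members were called lower and 3 higher, with median scaling 6 and 2, and with the length correction 4 and 4.

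**Figure D2:**
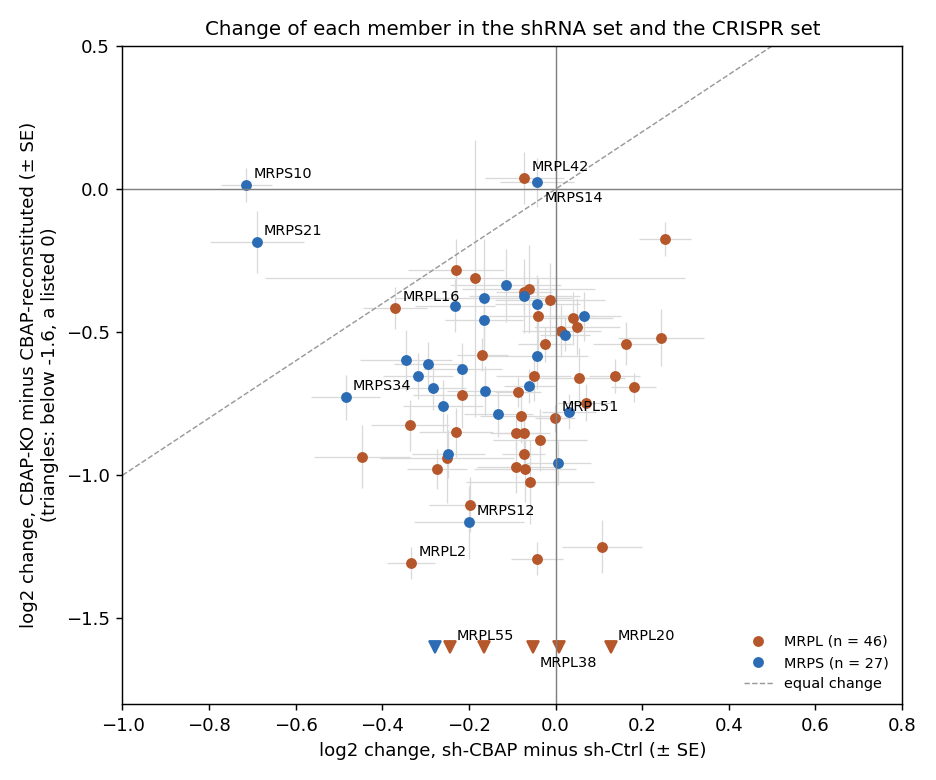
Log2 change of each member after knockdown (horizontal) and between CBAP-KO and CBAP-reconstituted (vertical), each with its SE, on the log2(FPKM + 1) scale. Most points lie below 0 on the vertical axis and near 0 on the horizontal axis, with MRPS10 and MRPS21 at the far left, and triangles at the lower edge are genes with a listed 0 in CBAP-KO.

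The changes of the sets were compared directly, as the change in the shRNA set minus that in the CRISPR set. It passed the adjusted test above 0 for 33 MRPL and 11 MRPS genes, and below 0 for 0 MRPL genes and 1 MRPS gene, MRPS10, where 15.5% of all tested genes passed above 0 and 18.3% below. Its median was 0.71 for MRPL and 0.41 for MRPS genes, against -0.05 over all tested genes. The direction of change was below 0 in both sets for 32 MRPL and 21 MRPS genes, for 13 and 4 it was above 0 in the shRNA set alone, and for 1 and 2 in the CRISPR set alone. Over all 46 MRPL and 27 MRPS genes, the CRISPR change was the lower one for 45 and 24. Only MRPL2, MRPL16 and MRPS34 were called lower in both sets. The matching shares over all tested genes, by direction and by call, were not computed. These counts are therefore not read as agreement between the sets or as a lack of it.

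Among large-subunit genes, MRPL2, whose protein lies near the peptidyl transferase center, stood at 52.2 and 50.7 FPKM in sh-Ctrl, 41.6 and 39.6 in sh-CBAP, 59.6 and 56.7 in the libraries labelled CBAP-reconstituted, and 23.5 and 22.3 in CBAP-KO. All 4 deficient libraries lay below all 4 expressing ones, and the CBAP-KO libraries were lowest. The log2 change was -0.33 (SE 0.0561, limma adjusted p = 0.022) after knockdown and -1.31 (SE 0.0561, limma adjusted p = 4.82e-05) in the CRISPR set, and the difference passed the test (0.97, adjusted p = 8.73e-04).

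MRPL16, counterpart of a bacterial protein that helps place tRNA in the large subunit, stood at 79.9 and 70.2 FPKM in sh-Ctrl, 55.6 and 59.8 in sh-CBAP, 70.3 and 70.5 in the libraries labelled CBAP-reconstituted, and 52.7 and 52.4 in CBAP-KO. It was the member whose changes in the sets were most alike among those called in both. The log2 change was -0.37 (SE 0.074, limma adjusted p = 0.0321) after knockdown and -0.42 (SE 0.074, limma adjusted p = 0.00611) in the CRISPR set. Both knockdown calls were marginal. That of MRPL16 was lost when any library other than sh-Ctrl 2 and sh-CBAP 2 was left out (adjusted p from 0.062 to 0.0921), and that of MRPL2 when any library other than sh-CBAP 1 and sh-CBAP 2 was (0.0514 to 0.0699).

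MRPL51 and MRPL23 had the highest mean FPKM of the MRPL genes over all libraries, at 183 and 147. The mean of MRPL20, 139, includes its listed zeros in CBAP-KO. MRPL51, a protein found only in mitochondria, stood at 195 and 207 FPKM in sh-Ctrl, 200 and 202 in sh-CBAP, 211 and 209 in the libraries labelled CBAP-reconstituted, and 120 and 121 in CBAP-KO. Only the CBAP-KO libraries stood apart. Its log2 change was -0.80 (SE 0.0464, limma adjusted p = 1.33e-04) in the CRISPR set, and 0.00 with a 95% interval from -0.12 to 0.11 in the shRNA set. MRPL23, a protein at the mouth of the exit tunnel, was at 150 and 150 in sh-Ctrl, 174 and 166 in sh-CBAP, 162 and 168 in the libraries labelled CBAP-reconstituted, and 105 and 98.9 in CBAP-KO, and its CRISPR change was -0.69 (limma adjusted p = 3.07e-04). MRPL22, also of the exit tunnel, was among the least abundant, between 14.9 and 24.1 FPKM over all libraries, with a CRISPR change of -0.44 (limma adjusted p = 0.0369).

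MRPL42 was the only MRPL gene above 0 in the CRISPR set. It stood at 49.5 and 48.8 FPKM in the libraries labelled CBAP-reconstituted and at 49.8 and 51.1 in CBAP-KO, a log2 change of 0.04 with a 95% interval from -0.19 to 0.27. The sh-Ctrl libraries were at 38.9 and 41.3 and the sh-CBAP libraries at 34.7 and 41.8. MRPL42 and the pair of genes set out next were chosen after their values were seen. MRPL44, whose protein has a ribonuclease III-like fold, stood at 12.4 and 11.9 in sh-Ctrl and 43 and 43.7 in the libraries labelled CBAP-reconstituted, a gap between the sets wider than its change within either. MRPL19 differed between libraries of 1 condition in the shRNA set, at 45.8 and 19.6 in sh-Ctrl and 39.2 and 17.5 in sh-CBAP. The library numbered 1 was the higher in both. In the CRISPR set it was at 26 and 26.2 in the libraries labelled CBAP-reconstituted and 20.2 and 21.5 in CBAP-KO. The test uses 1 estimate of spread over all conditions, and neither change of MRPL19 passed it.

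The 3 members listed at 0 in both CBAP-KO libraries were all large-subunit genes. MRPL20, counterpart of a bacterial protein needed early in large-subunit assembly, stood at 146 and 166 FPKM in sh-Ctrl, 169 and 171 in sh-CBAP, and 235 and 227 in the libraries labelled CBAP-reconstituted, the highest level of any MRPL gene there. MRPL38, which is specific to mitochondria, stood at 59.6 and 64.5, 60 and 59.5, and 79.4 and 80.1 in the same order. MRPL55 stood at 51.5 and 58, 46.6 and 45.3, and 69.9 and 68.4. No intermediate values were seen in any of these genes. The test called them, but genes such as these can be listed at 0 because the estimate failed, so no fold is given and their place in the order of changes has no meaning. Of the 5407 tested genes at 10 FPKM or more in all 6 other libraries, 30 (0.555%) were listed at 0 in both CBAP-KO libraries, and of the 73 members, which all reached that level, 3 (4.11%) were. Listed zeros of any pattern were about as common in members (8.22%) as in all tested genes (7.74%).

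The other 3 members with a listed 0 had it in 1 of the CBAP-KO libraries. MRPL12, the stalk protein that contacts elongation factors, was at 54.1 in the first CBAP-KO library and listed at 0 in the second. MRPL30, the least abundant MRPL gene, was at 16 and listed at 0. MRPS16 was listed at 0 in the first CBAP-KO library and at 61 in the second, a level near the 66.6 and 65.7 of the libraries labelled CBAP-reconstituted. None of the 3 was called in the CRISPR set by limma (adjusted p = 0.0902, 0.195 and 0.195). With every gene that has a listed 0 left out, 58 of the 67 remaining members were called lower in the CRISPR set, with a median log2 change of -0.65, where 28.3% of the 10542 genes then tested were called lower.

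**Figure D3:**
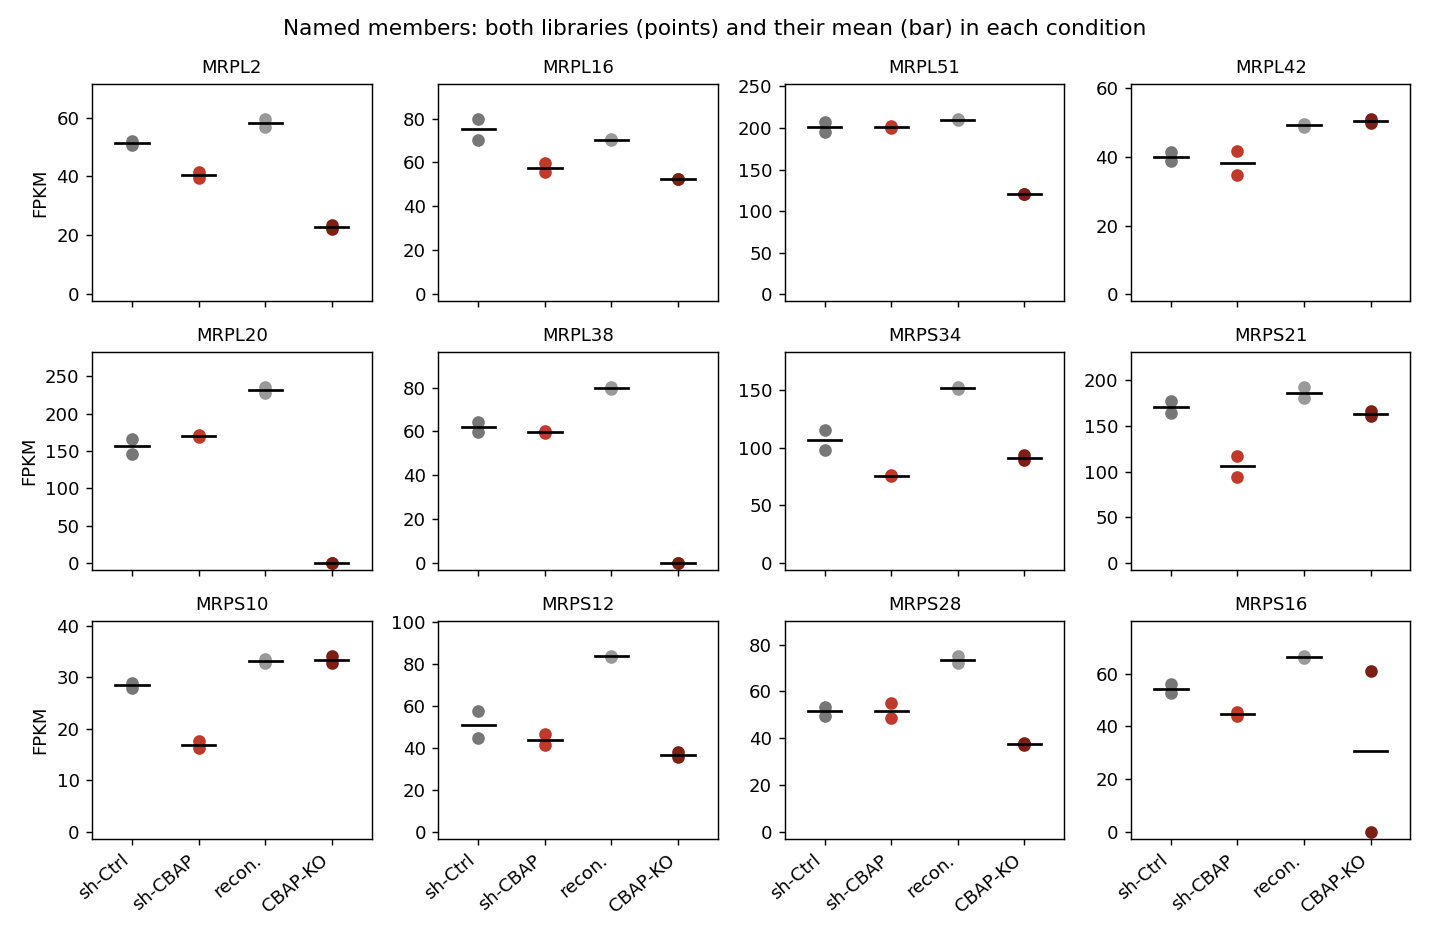
FPKM of 12 named members in the 4 conditions, each on its own axis from 0, with both libraries as points and their mean as a bar (recon. is CBAP-reconstituted). MRPS10 and MRPS21 are lowest in sh-CBAP, MRPL42 is level within each set, and MRPL20 and MRPL38 are at 0 in CBAP-KO.

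Among small-subunit genes, the largest changes after knockdown were in MRPS10 and MRPS21, which were not called between CBAP-KO and CBAP-reconstituted. MRPS10, a protein of the head of the small subunit, stood at 27.9 and 28.9 FPKM in sh-Ctrl, 17.6 and 16.2 in sh-CBAP, 32.7 and 33.5 in the libraries labelled CBAP-reconstituted, and 32.7 and 34.1 in CBAP-KO. The sh-CBAP libraries stood apart from the other 6. The log2 change was -0.71 (SE 0.0592, limma adjusted p = 0.00367) after knockdown and 0.01 in the CRISPR set, with a 95% interval from -0.13 to 0.16, and the difference between the sets passed the test (-0.73, adjusted p = 0.00265).

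MRPS21, counterpart of a small bacterial protein, was the most abundant MRPS gene, at 177 and 164 FPKM in sh-Ctrl, 94.6 and 117 in sh-CBAP, 180 and 192 in the libraries labelled CBAP-reconstituted, and 166 and 161 in CBAP-KO. The log2 change was -0.69 (SE 0.109, limma adjusted p = 0.0194) after knockdown and -0.19 in the CRISPR set (adjusted p = 0.206, 95% interval from -0.45 to 0.08). The difference of -0.51 between the sets did not pass (adjusted p = 0.0521). MRPS21 has 8 named pseudogenes. Its knockdown call was lost without sh-Ctrl 1 or either library labelled CBAP-reconstituted (adjusted p from 0.0615 to 0.0715).

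MRPS34, which is specific to mitochondria and needed for the stability of the small subunit, was called lower in both sets. It stood at 98.1 and 115 FPKM in sh-Ctrl, 75.8 and 75.1 in sh-CBAP, 152 and 151 in the libraries labelled CBAP-reconstituted, and 88.9 and 93.4 in CBAP-KO. The deficient libraries were all below the expressing ones. The log2 change was -0.48 (SE 0.0791, limma adjusted p = 0.0207) after knockdown and -0.73 (SE 0.0791, limma adjusted p = 0.00107) in the CRISPR set, and the difference did not pass (0.24, adjusted p = 0.149). The knockdown call of MRPS34 was lost without either library labelled CBAP-reconstituted (adjusted p = 0.0703 and 0.0701), and its exons overlap those of EME2.

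Between CBAP-KO and CBAP-reconstituted, the largest called MRPS changes were in MRPS12, MRPS28 and MRPS23. MRPS12, a protein of the decoding center, was at 44.4 and 57.3 FPKM in sh-Ctrl, 46.3 and 41.5 in sh-CBAP, 83.4 and 83.6 in the libraries labelled CBAP-reconstituted, and 38 and 35.4 in CBAP-KO. The libraries labelled CBAP-reconstituted stood well above the other 6, and the CRISPR change was -1.17 (SE 0.127, limma adjusted p = 0.00107). MRPS28 was at 53.2 and 49.7, 55 and 48.5, 72 and 75.1, and 37.9 and 36.9 in the same order, with a CRISPR change of -0.96 (SE 0.0754, limma adjusted p = 3.74e-04) and groups that overlapped in the shRNA set. MRPS23 was at 57 and 58 in the libraries labelled CBAP-reconstituted and 29.2 and 30.4 in CBAP-KO, a change of -0.93 (SE 0.0841, limma adjusted p = 5.82e-04). MRPS7, a protein of the head, was level in the shRNA set, at 58.5 and 65.1 against 63 and 63.1, and went from 67.7 and 65.8 to 38.1 and 39 in the CRISPR set, and the difference between the sets passed (0.81, adjusted p = 0.0022).

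MRPS14 was close to 0 in both sets, at 15.5 and 14.8 FPKM against 13.5 and 15.9 in the shRNA set and at 17.1 and 17.3 against 18 and 17 in the CRISPR set, where the 95% interval of the change ran from -0.19 to 0.24. MRPS36 and MRPS25 were the least abundant MRPS genes. MRPS36 fell in CBAP-KO to 10.3 and 12 from 15.8 and 18.7 (limma adjusted p = 0.00907), and MRPS25 was at 14.7 and 14.4 against 18.2 and 19.1 (adjusted p = 0.0744).

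The 3 paralogs of the S18 family, whose proteins occupy different places in the ribosome, were all called lower in the CRISPR set and in none of their knockdown comparisons. MRPS18A was at 57 and 58.2 FPKM in the libraries labelled CBAP-reconstituted and 36.5 and 34.3 in CBAP-KO (log2 change -0.69, limma adjusted p = 4.77e-04). MRPS18B was at 73 and 73.3 against 41.7 and 42.4 (-0.79, adjusted p = 8.58e-04), and MRPS18C, the closest to the bacterial protein, at 22.7 and 22 against 16 and 16.1 (-0.46, adjusted p = 0.00863). Of the head-to-head pair, MRPL46 was at 53.6 and 55.6 against 27.4 and 27.2 (-0.97, adjusted p = 6.07e-04) and MRPS11 at 30.7 and 34.6 against 26.2 and 22.8 (-0.40, adjusted p = 0.0192).

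By origin, 42 members have a bacterial counterpart and 26 are specific to mitochondria, and 5 were left unclassed. In the CRISPR set 32 of the 42 and 22 of the 26 were called lower, with medians of -0.69 and -0.65, where 25.9% of all tested genes were. The members have short exon models, with a median merged length of 2549 bases against 5359 for coding genes of the table, and the median CRISPR change of all tested genes varied with length. It was -0.05 up to 1000 bases, -0.31 at 1000 to 2000 bases and 0.14 above 8000 bases. The members lay below it at every length, at -0.77 for 26 members of 1000 to 2000 bases and -0.37 for 6 members above 8000 bases. After a loess correction for length, 52 of 73 members (71.2%) were called lower in the CRISPR set, where 26.5% of all tested genes were, and the median was -0.49.

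**Figure D4:**
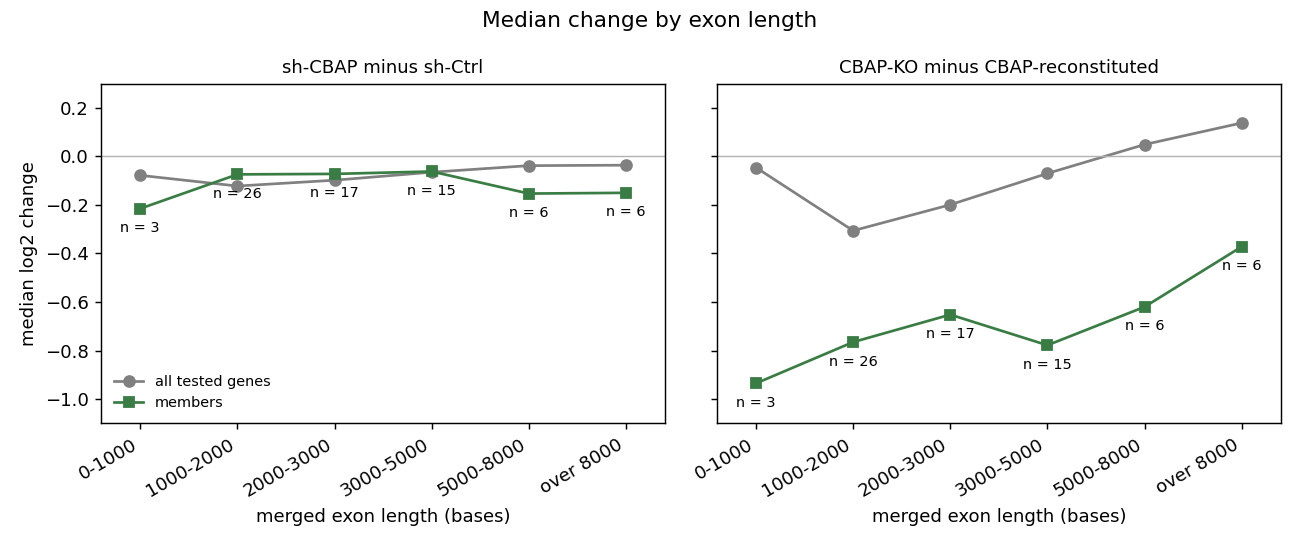
Median log2 change of all tested genes (gray) and of the members (green, with their number) by merged exon length, after knockdown (left) and between CBAP-KO and CBAP-reconstituted (right). In the CRISPR set the members lie below all genes in each of the 6 length classes, and in the shRNA set they lie close to them or cross them.

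The other genes of the pathway are described from lists of factors that build, transcribe for or work on the mitochondrial ribosome. Their counts stand beside 25.9% of all tested genes called lower in the CRISPR set and 8.70% in the shRNA set. In the CRISPR set the share was 42.9% for translation factors, nearer to that background than the 80.8% of the members. Of 7 mitochondrial ribosomal proteins with other names, 5 were called lower in the CRISPR set and 0 in the shRNA set (limma, also 0 at an unadjusted threshold of 0.05). The largest change was in AURKAIP1, at 148 and 149 FPKM in the libraries labelled CBAP-reconstituted and 71.9 and 70.9 in CBAP-KO (log2 change -1.05, limma adjusted p = 4.44e-04). Of 14 translation factors, 6 were called lower in the CRISPR set, led by TACO1, which activates translation of a cytochrome oxidase subunit (-0.77, adjusted p = 4.3e-04). In the shRNA set 1 of the 14 was called, TSFM, the exchange factor of the mitochondrial elongation factor Tu, at 26.9 and 25.7 in sh-Ctrl and 21.9 and 21.8 in sh-CBAP (-0.26, adjusted p = 0.0373).

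Of 23 assembly factors, 10 (43.5%) were called lower in the CRISPR set, where 25.9% of all tested genes were. RNMTL1, a methyltransferase of the large ribosomal RNA, was at 41.6 and 40.6 FPKM in the libraries labelled CBAP-reconstituted and 11.6 and 12.3 in CBAP-KO (log2 change -1.70, limma adjusted p = 7.06e-05). In the shRNA set 1 assembly factor was called, METTL15, a methyltransferase of the small ribosomal RNA, which was higher (0.46, adjusted p = 0.0272). Of 19 genes of mitochondrial transcription and RNA handling, 9 were called lower in the CRISPR set, led by SLIRP, a partner of LRPPRC in keeping mitochondrial mRNA stable, at 342 and 350 against 160 and 156 (-1.13, adjusted p = 3.85e-04). In the shRNA set 3 of these were called lower and 1 higher. MTPAP, the mitochondrial poly(A) polymerase, was at 15.1 and 16.1 in sh-Ctrl and 9.1 and 10.8 in sh-CBAP (-0.61, adjusted p = 0.016). TFAM, which packages mitochondrial DNA and starts its transcription, was at 17.4 and 18.4 in sh-Ctrl and 25.7 and 31 in sh-CBAP (0.63, adjusted p = 0.0173).

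Other ribosomal and respiratory genes were also lower in the CRISPR set, where 25.9% of all tested genes were called lower and 23.9% higher. Of 81 cytosolic ribosomal proteins, 54 were called lower and 3 higher (median -0.59), and of 73 nuclear genes for oxidative phosphorylation subunits, 56 were called lower and 4 higher (median -0.50). In the shRNA set, 3 and 4 of the cytosolic ribosomal proteins and 10 and 1 of the oxidative phosphorylation genes were called lower and higher. Differences between these lists and the members were not tested.

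**Figure D5:**
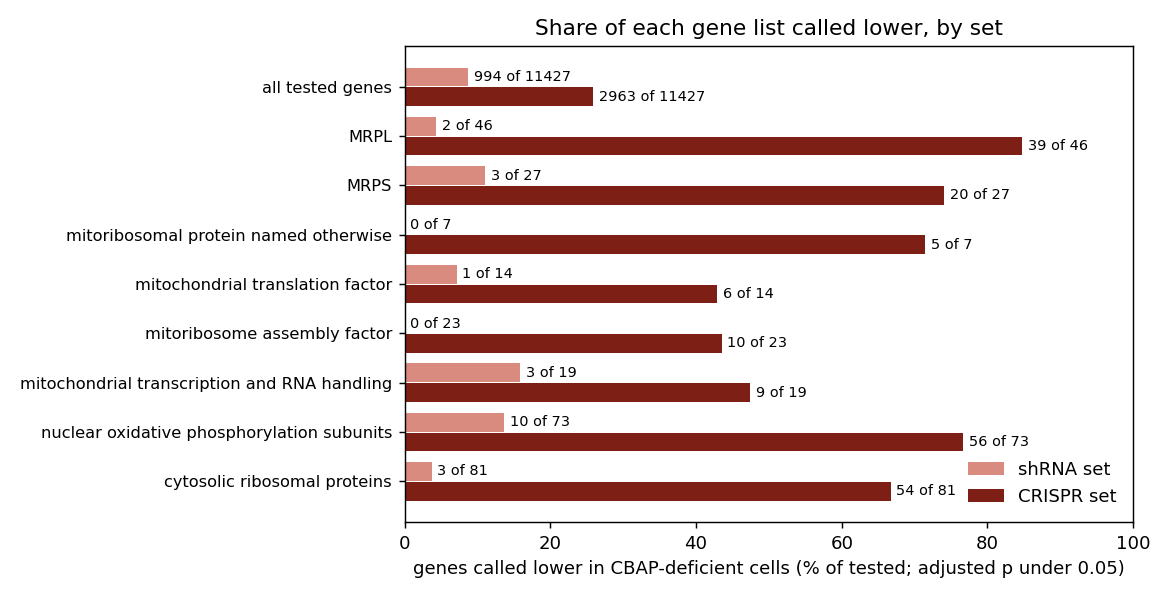
Percent of the tested genes of each list that were called lower in CBAP-deficient cells (limma, adjusted threshold of 0.05) in the shRNA (light) and CRISPR (dark) comparison, with counts beside the bars. MRPL (39 of 46) and MRPS genes (20 of 27) stand with the other ribosomal and respiratory lists in the CRISPR set and near all tested genes in the shRNA set.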

How the data were processed

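Total mRNA of 8 Jurkat libraries was sequenced as paired-end reads. Reads were mapped by the authors to hg19 (TopHat 2), and they deposited FPKM per gene, estimated by cuffdiff, as 1 table. FPKM are scaled for exon length and mapped fragments, so no counts are held, the depth of each library is unknown, no counting interval was computed, and precision rests on 2 libraries per condition. The annotation and library scaling are not given in the sources used here. Summed FPKM per library ran from 362082 to 434742.

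Groups followed the labels. On log2(FPKM + 1), the 11427 genes averaging 1 FPKM or more were tested with limma 3.58.1 in R 4.3.3 (empirical Bayes with trend, Benjamini-Hochberg adjustment over all tested genes, threshold 0.05), which was also tested on simulated data. The classes were compared in 1 model. Another, with the 4 conditions as separate means, gave both within-set changes and their difference. It used 1 estimate of spread per gene over all 4 conditions. The SE, intervals and p-values of each set therefore also draw on the libraries of the other set. Fold changes on this scale understate changes of low genes. Ratios used mean FPKM with no pseudocount. Python 3.11.15, numpy 2.4.6, pandas 2.3.3 and matplotlib 3.10.9 were used.

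Gene positions and merged exon lengths came from a GENCODE annotation of GRCh37, and promoter windows from RefSeq (GRCh38.p14). Genes were named by rule: for each subunit, those called over both classes, the 3 largest called changes in each direction of each set and of the difference, the 2 highest and 2 lowest in mean FPKM, those listed at 0, the S18 paralogs, and the largest called change of each pathway list in each set. MRPL1, MRPL19, MRPL42, MRPL44, MRPL46, MRPL48, MRPS11 and MRPS14 were named after their values were seen. The members and lists were chosen with earlier results of these data known. Alternatives changed the pseudocount, filter, scaling, trend, listed zeros, set term, block and libraries.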

Additional observations from a re-analysis of the deposited data

Results flagged for a closer look

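Within a class of 4 libraries, 1 library stood apart from the rest (Dixon's 95% criterion) in 3 of 146 groups examined. Chance gives about 7.3 for 4 libraries of 1 kind. Each class joins 2 conditions, so that number is no measure of chance here, and a library apart can be missed. MRPL16 was at 79.9 FPKM in sh-Ctrl 1 and at 70.2, 70.3 and 70.5 in the other CBAP-expressing libraries. MRPL32 was at 39 in sh-CBAP 1 and at 50.1, 51.1 and 51.5 in the other CBAP-deficient libraries. MRPS27 was at 45.2 in sh-CBAP 2 and at 41.1, 41.2 and 41.3 in the others.

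The change in the shRNA set minus that in the CRISPR set passed the adjusted test of limma for 33 MRPL and 12 MRPS genes. Among MRPL genes, MRPL20, MRPL38 and MRPL55 were listed at 0 in both CBAP-KO libraries. Their fitted differences of 7.99, 6.28 and 5.89 are set by those zeros and the pseudocount and are neither folds nor bounds. Among MRPS genes the difference was 0.96 for MRPS12, 0.96 for MRPS28 and 0.81 for MRPS7, and it was -0.73 for MRPS10, the only member with a difference below 0 that passed.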

How the results depend on the processing

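In the CRISPR set, the counts of members called lower stayed within 1.5 times those reported under every alternative run, with 33 to 40 MRPL and 16 to 22 MRPS genes called when 1 library was left out. Over both classes, 0 members were called under all alternatives except the set as a term (7 MRPL, 9 MRPS). The counts of the shRNA set were not stable. For MRPL genes, 4 were called with quantile normalization, 4 with median scaling, 5 with the length correction, 6 without genes listed at 0, and 0 with the set fitted alone, and leaving out 1 library gave 0 to 6. For MRPS genes, 5 were called without genes listed at 0, 0 with the set fitted alone, and 1 to 7 with 1 library left out. Without sh-CBAP 2, 13 members were called lower, and without either library labelled CBAP-reconstituted, 1 was. The median MRPL change of the shRNA set turned from -0.07 to 0.021 with quantile normalization and 0.037 with the length correction. For the difference between the sets, 20 to 37 MRPL and 6 to 16 MRPS genes passed with 1 library left out, and 19 MRPS genes with median scaling. Leaving out a CBAP-reconstituted or CBAP-KO library left the shRNA changes as they were (median of the members -0.074). It altered only the estimate of spread that the sets share in the test. The cause of the other shifts was not tested. Of 18 named calls, 12 were kept in every refit and 0 turned direction, and all 5 knockdown calls were lost with the set fitted alone. MRPS10 was the only one of these kept in every other refit. The MRPS12 difference was lost without either library labelled CBAP-reconstituted (0.97 and 0.96, adjusted p = 0.0537 and 0.0539).

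The labels do not say whether the replicate numbers pair the samples. Correlations of deviations between same-numbered libraries ran from -0.063 to 0.146, the highest being that of sh-Ctrl and sh-CBAP. A pairing within the shRNA set is therefore not excluded. With replicate number as a block, 1 MRPL gene was called in the shRNA set, and no other count of members moved by over 1.5 times. Over all tested genes, the block gave 776 calls in the shRNA set, against 1408 without it. Small changes cannot be resolved with 2 libraries per condition and no counts, and FPKM show shares of RNA, not amounts per cell.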
